A study of Mus musculus with 11 samples.

Results

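Mesenchymal cells of the mouse lung were compared between pneumonectomy (PNX), an operation that takes out lung tissue, and sham surgery at day 7. The comparison held 6 of the 11 libraries in the study, 3 from PNX and 3 from sham, chosen by surgery and day alone. All libraries came from C57BL6 lung, from cells negative for EpCAM, CD45 and CD31, which are surface markers of epithelial, haematopoietic and endothelial cells. The other 5 libraries, 2 sham and 3 PNX at day 14, entered only the estimate of spread and the comparison between days. The labels name no genotype beyond the strain, no sex and no age, and do not state how much lung was removed. Nor do they say whether each replicate is its own animal, and p-values here rest on library-to-library spread that may be technical.

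After pneumonectomy the remaining lung grows, and its mesenchyme supplies matrix, growth factors and mechanical support to the epithelium and vessels. Alveolar fibroblasts lie in the walls of the air sacs, adventitial fibroblasts form cuffs around vessels and airways, and pericytes and smooth muscle cells wrap vessels and airways. Fibroblasts that enter a matrix-producing state in injured lung are known to express Cthrc1, tenascin C and periostin.

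Total counts ranged from 4082935 to 8362119 in the sham libraries of day 7 and from 2963341 to 7614122 in the PNX libraries. Levels are given as CPM, counts per 1000000 of the library size scaled by TMM factors, for replicates 1, 2 and 3 in that order, and differences as the log2 fold change of PNX over sham ± SE. A gene is said to have risen or fallen only at an edgeR quasi-likelihood p under 0.05 after Benjamini-Hochberg adjustment over all genes tested. Transcripts of gated-out cells were present and uneven. Markers of alveolar type II cells summed to 932, 13358 and 83.4 CPM in sham and 1803, 1604 and 434 CPM in PNX, so sham replicate 2 stood apart. Endothelial markers summed to 404, 1238 and 319 CPM in sham and 2069, 841 and 229 CPM in PNX. For the gate itself, Epcam stood at 1.97, 3.87 and 0.580 CPM in sham and 2.38, 2.49 and 1.80 CPM in PNX, Ptprc (CD45) at 8.15, 14.4 and 22.6 CPM and 9.01, 5.26 and 7.97 CPM, and Pecam1 (CD31) at 19.7, 85.7 and 11.7 CPM and 247, 82.2 and 11.1 CPM. In bulk RNA, fewer cells of a type and less RNA per cell cannot be told apart. Sham replicate 3 held 0 counts on Y-linked genes and the other 5 libraries of day 7 held 1026 to 2452. At day 14, sham replicate 1 and PNX replicates 2 and 3 held 0, sham replicate 2 held 3903 and PNX replicate 1 held 2343.

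At day 7, 6 of the 16011 genes tested rose after PNX (0.0375%) and 0 fell (0%). Without adjustment, 746 genes (4.66%) were higher and 1292 (8.07%) lower at p under 0.05. DESeq2 called 132 higher (0.824%) and 325 lower (2.03%), and limma voom 249 (1.56%) and 577 (3.6%). Levels did not overlap between groups for 1593 genes that were higher in PNX (9.95%) and 1532 that were lower (9.57%). The lower genes were unevenly spread over transcript composition. Of the quartile of genes with the most GC-rich transcripts 17.0% were lower at p under 0.05, and of the quartile with the least GC 1.89%. Short transcripts stood higher: 9.13% of the shortest quartile of genes were higher at that p, and 2.77% of the longest. The part of GC content and length in the differences between genes was tested only through the GC offset and the GC and length offset. These offsets moved the median log2 fold change over all genes from 0.03 to 0.12 and 0.09. At unadjusted p under 0.05, 1007 genes were higher and 1041 lower with the GC offset, and 879 and 995 with the GC and length offset.

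**Figure D1:**
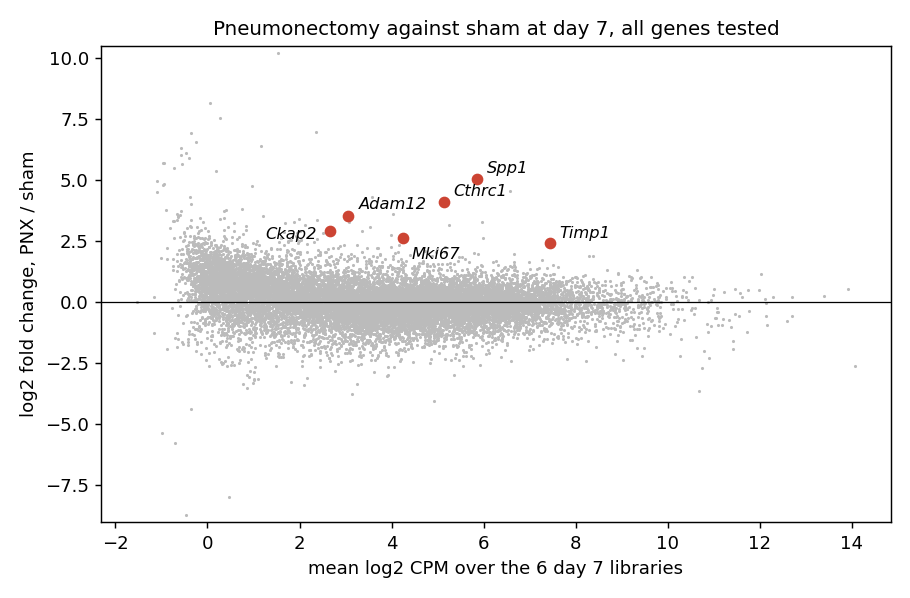
Log2 fold change of PNX over sham at day 7 against mean log2 CPM over the 6 libraries, 1 point for each of 16011 genes. The 6 genes with an adjusted p under 0.05 are in red and named, and all of them lie above 0.

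The 6 genes that rose encode secreted matrix proteins, a protease, a protease inhibitor, and proteins of dividing cells. Cthrc1, which encodes a secreted collagen triple helix repeat protein of matrix-producing fibroblasts, stood at 8.57, 5.58 and 11.6 CPM in sham and 106, 193 and 152 CPM in PNX (log2 fold change 4.11 ± 0.42, adjusted p = 0.000211 by edgeR). The lowest PNX library lay far above the highest sham library. Timp1, an inhibitor of matrix metalloproteinases, was the most even of the 6, at 82.8, 81.2 and 63.2 CPM in sham and 429.9, 399.8 and 387 CPM in PNX (2.42 ± 0.32, adjusted p = 0.00505 by edgeR). Spp1, which encodes osteopontin, was the least even: 17.0, 13.3 and 6.38 CPM in sham and 216, 880.5 and 129.8 CPM in PNX (5.06 ± 0.70, adjusted p = 0.0216 by edgeR). PNX replicate 2 held most of its signal, and the other PNX libraries still exceeded every sham library.

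Adam12, a metalloprotease gene of mesenchymal progenitors and activated fibroblasts, stood at 2.53, 2.36 and 2.03 CPM in sham and 17.5, 25.5 and 36.4 CPM in PNX (3.51 ± 0.55, adjusted p = 0.0216 by edgeR). Mki67, the Ki-67 protein that coats mitotic chromosomes, stood at 4.36, 7.30 and 11.6 CPM in sham and 63.4, 49.3 and 32.9 CPM in PNX (2.64 ± 0.44). Ckap2, a protein of the mitotic spindle, stood at 1.83, 2.15 and 2.46 CPM in sham and 16.3, 20.2 and 11.9 CPM in PNX (2.89 ± 0.48, adjusted p = 0.0337 by edgeR for both). For each of these 3 genes the groups did not overlap.

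In mm10 Cthrc1 lies on chromosome 15 (39076932 to 39087121), Timp1 on chromosome X (20870166 to 20874735), Spp1 on chromosome 5 (104435118 to 104441050) and Adam12 on chromosome 7 (133883199 to 134232146). Mki67 lies on chromosome 7 (135689784 to 135716361) and Ckap2 on chromosome 8 (22168160 to 22185819).

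Cthrc1 and Timp1 passed under each of the 25 other settings tried, with adjusted p up to 0.0244 and 0.0406. Spp1, Adam12, Mki67 and Ckap2 did not pass without sham day 7 replicate 2 (adjusted p = 0.0549 for each by edgeR). Leaving out replicate 3 of sham at day 7 also ended the call of Adam12 and of Ckap2 (0.0827 for both). Of the PNX libraries at day 7, replicate 1 was needed for Mki67 (0.128) and Ckap2 (0.112 without it), replicate 2 for Ckap2 (0.105), and replicate 3 for Adam12 (0.0701) and Ckap2 (0.0544). Of those at day 14, dropping replicate 2 left Adam12 and Ckap2 at 0.0552 and Mki67 at 0.0654, and dropping replicate 3 left Mki67 at 0.0703 and Ckap2 at 0.0675. With an offset for GC content Spp1 and Mki67 stood at 0.0650, Adam12 at 0.0525 and Ckap2 at 0.0617. With a covariate for background counts on olfactory and vomeronasal receptor genes, Spp1 stood at 0.146, Mki67 at 0.107, and Adam12 and Ckap2 at 0.0872. Per 1000000 total counts that background was 215, 653 and 91.6 in sham and 600, 1214 and 303 in PNX at day 7. With only the day 7 libraries in the fit Spp1 stood at 0.101, Mki67 at 0.0931 and Ckap2 at 0.0550.

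Among the genes just outside the threshold, Trem2, a lipid receptor of macrophages, stood at 1.83, 1.29 and 1.74 CPM in sham and 15.1, 5.26 and 30.2 CPM in PNX (3.36 ± 0.59, adjusted p = 0.0529 by edgeR). Macrophage markers as a list summed to 171, 754 and 72.1 CPM in sham and 259, 175 and 195 CPM in PNX, so sham replicate 2 was highest, and 10 of 18 were higher in PNX. At unadjusted p under 0.05, 3 were higher and 1 lower, against 4.66% and 8.07% of all genes. The higher ones were 0 without replicate 1 or 3 of sham and 5 without replicate 2 of sham. Groups did not overlap for 2 that were higher, against 9.95% of all genes. Of the 18 markers, the 4 of smallest p were Chil3, Ear2, Mrc1 and Ptprc, and levels of the 3 higher ones are not given here. C1qa and Adgre1 were picked after their values were seen, and their groups overlapped. C1qa, a complement gene of macrophages, stood at 1.26, 6.44 and 0.87 CPM in sham and 2.55, 1.66 and 1.41 CPM in PNX, and Adgre1 (F4/80) at 0.14, 1.29 and 2.03 CPM and 3.06, 0.55 and 0.64 CPM. The part of macrophage RNA in the levels of Trem2 and Spp1 was not tested. Vwa1, a matrix protein of basement membranes, was the lower gene of smallest p, at 28.7, 50.5 and 47.7 CPM in sham and 6.46, 4.71 and 8.48 CPM in PNX (-2.67 ± 0.48, adjusted p = 0.0603 by edgeR). Cfd, the complement protease adipsin, stood at 11.2, 2.36 and 2.32 CPM in sham and 51.5, 42.9 and 101 CPM in PNX (3.59 ± 0.64, adjusted p = 0.0606 by edgeR).

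**Figure D2:**
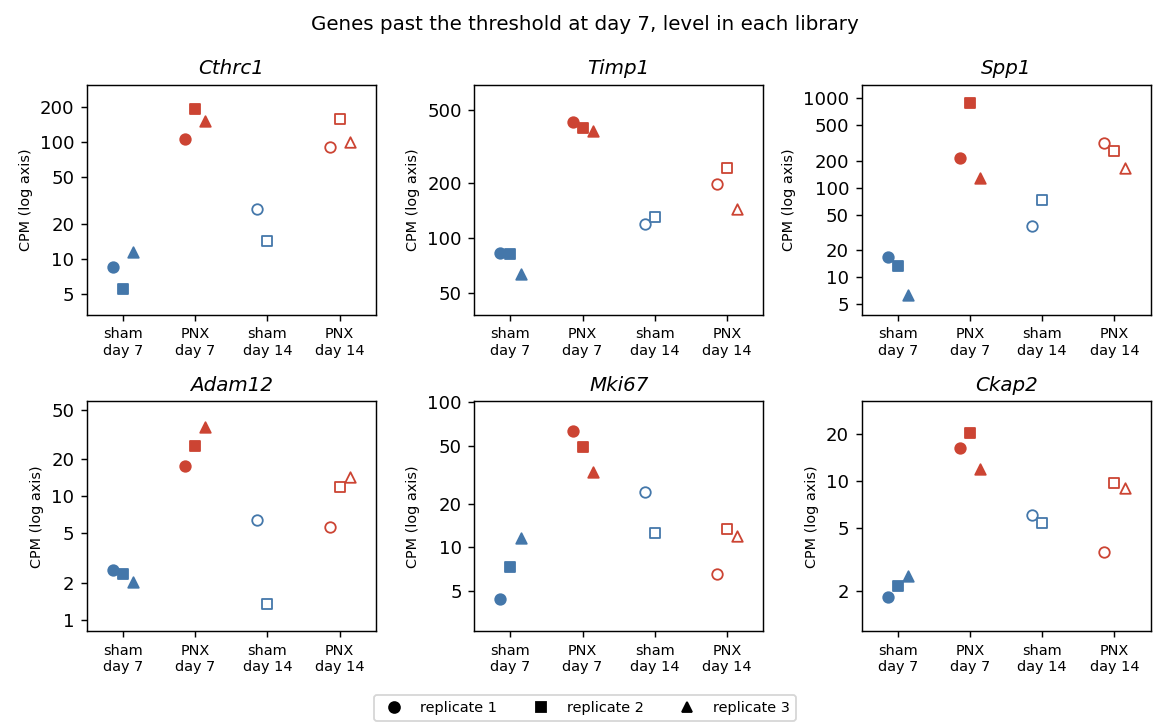
CPM on a log axis in each library for the 6 genes past the threshold at day 7, with filled symbols for day 7 and open symbols for day 14, blue for sham and red for PNX, and the shape giving the replicate. At day 7 the 3 PNX libraries lie above the 3 sham libraries in every panel, from 106 to 193 CPM against 5.58 to 11.6 CPM for Cthrc1.

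At day 14, 1 of 16011 genes passed the edgeR threshold in either direction (0.00625%), the gene Angptl7 of the secreted angiopoietin-like family (4.49 ± 0.66, adjusted p = 0.0390 by edgeR). At day 7 its log2 fold change was 1.38 ± 0.49. Cthrc1 stood at 26.9 and 14.3 CPM in sham and 91.8, 159 and 100.2 CPM in PNX, a log2 fold change of 2.53 ± 0.46. Timp1 was at a log2 fold change of 0.63 ± 0.35 and Ckap2 of 0.39 ± 0.51. Mki67 stood at 24.2 and 12.4 CPM in sham and 6.53, 13.3 and 11.9 CPM in PNX, a log2 fold change of -0.77 ± 0.47. Both sham libraries of day 14 stood above all 3 of day 7 for Mki67. The difference in PNX effect between days did not pass the edgeR test for any gene after adjustment (0 of 16011, 0%; 1402 or 8.76% at unadjusted p under 0.05; 102 with DESeq2 and 0 with voom), and for Mki67 it was 3.41 ± 0.63 (adjusted p = 0.160 by edgeR).

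Cell division genes stood higher after PNX, and the medians of their lists ran upwards from entry into the cycle to mitosis. Of 18 genes of G1 and S entry 7 were higher and 11 lower (median log2 fold change -0.06, against 0.03 over all genes tested). Of 28 DNA replication genes 22 were higher (median 0.34) and 6 did not overlap between groups, against 9.95% of all genes. Of 20 mitotic regulators 16 were higher (median 1.31), 10 of them without overlap. A further 2 were lower without overlap, against 9.57% of all genes in that direction. Of 32 genes of the spindle, kinetochore and cytokinesis 31 were higher (median 1.78) and 25 did not overlap. At unadjusted p under 0.05 the higher genes numbered 1, 4, 9 and 22 in these lists, against 4.66% of all genes. Leaving out 1 library gave 6 to 13 mitotic regulators and 16 to 27 spindle genes. The replication genes numbered 2 to 7, with 15 of 28 higher (median 0.06) when replicate 2 of sham was left out and 27 (median 0.73) when replicate 3 of sham was. The median of the G1 and S list turned to 0.04 with the GC offset, against 0.12 over all genes with that offset. Of all these list members, Ckap2 alone passed after adjustment.

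**Figure D3:**
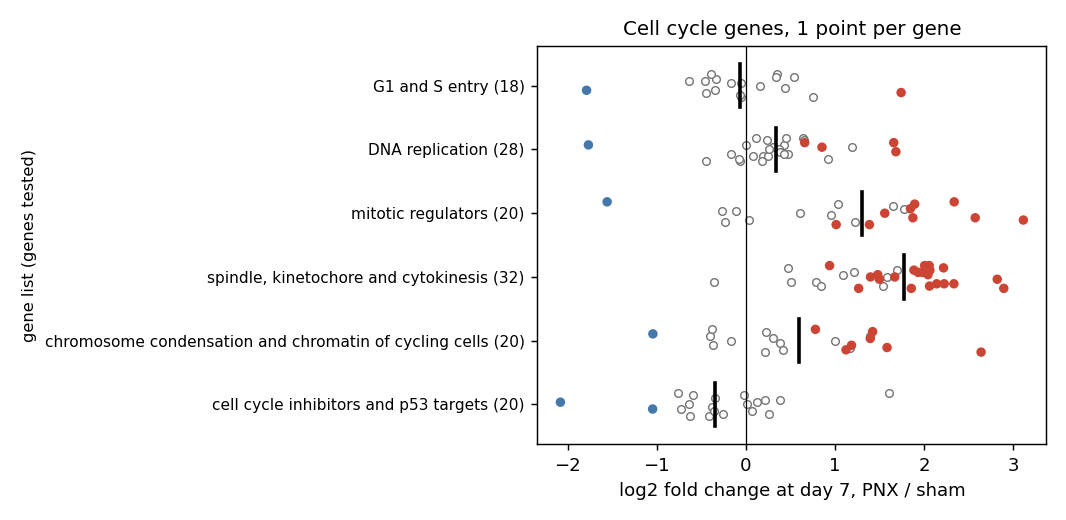
Log2 fold change of PNX over sham at day 7 for each member of 6 cell cycle lists, with the number tested in brackets and a black bar at the list's median. Filled points have an unadjusted p under 0.05 (red higher, blue lower) and open points do not, and the medians run from -0.35 for cell cycle inhibitors and p53 targets to 1.78 for the spindle list.

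The genes of the mitotic kinase and its cyclins stood together. Ccnb2, a B-type cyclin, stood at 3.79, 5.15 and 14.8 CPM in sham and 50.1, 42.1 and 50.2 CPM in PNX (2.57 ± 0.50, adjusted p = 0.0606 by edgeR). Cdk1, the kinase that cyclin B activates, stood at 1.55, 3.22 and 8.84 CPM in sham and 17.8, 29.6 and 22.2 CPM in PNX (2.34 ± 0.54). For both, and for the activator of the anaphase-promoting complex Cdc20 (1.87 ± 0.46), all 3 PNX libraries exceeded all 3 sham libraries. Sham replicate 3 had the highest level of each in sham. Fzr1, which directs the same complex in G1, ran the other way, at 10.5, 23.0 and 25.7 CPM in sham and 7.65, 6.65 and 5.78 CPM in PNX (-1.56 ± 0.43).

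Kinetochore and spindle genes stood higher as well. Nuf2, of the complex that ties kinetochores to microtubules, stood at 0.843, 2.58 and 2.75 CPM in sham and 14.1, 16.6 and 13 CPM in PNX (2.82 ± 0.61). Tpx2, a spindle assembly factor, stood at 5.48, 6.01 and 14.4 CPM in sham and 32.1, 37.7 and 34.8 CPM in PNX (2.01 ± 0.43). Cenpe, a kinetochore motor (2.33 ± 0.53), Prc1, which bundles the microtubules of the midzone (2.07 ± 0.48), and Anln, the anillin of the cleavage furrow (1.5 ± 0.36), did not overlap between groups either. At day 14 the median of the spindle list was -0.14. Of its 32 members 17 differed between days at unadjusted p under 0.05 (0 after adjustment), against 8.76% of all genes. The spindle transcripts have a median GC content of 43.6%, below the 49.6% of all genes tested, and with an offset for GC content and length the list's median was 1.90.

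Among the replication genes, the difference lay in few members. Gins2, a subunit of the replicative helicase, stood at 2.39, 3.01 and 5.36 CPM in sham and 10.7, 9.97 and 13.5 CPM in PNX (1.66 ± 0.48), and Tk1, thymidine kinase, at 1.83, 5.80 and 6.38 CPM and 18.2, 14.1 and 12.6 CPM (1.68 ± 0.55). The helicase gene Mcm4 was at -0.17 and the clamp gene Pcna at 0.38, both as log2 fold changes with an unadjusted p over 0.05. Of the G1 cyclins, Ccnd3 was lower, at 70.1, 189.9 and 290.3 CPM in sham and 51.0, 67.6 and 41.1 CPM in PNX (-1.79 ± 0.45), and Ccne1 higher, at 0.562, 2.58 and 4.93 CPM and 10.2, 9.14 and 7.84 CPM (1.74 ± 0.81). The 20 genes that inhibit the cycle or are targets of p53 had a median of -0.35, with 0 higher and 2 lower at unadjusted p under 0.05, near the 8.07% of all genes, and 0 to 4 when single libraries were left out. Their median was -0.12 with the receptor background covariate. One of the 2 was Sesn2, a stress-induced inhibitor of growth signalling, at 2.25, 17.2 and 17.8 CPM in sham and 3.57, 3.32 and 1.93 CPM in PNX (-2.08 ± 0.77).

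Promoters of mitotic genes commonly carry the cell cycle genes homology region, a short element read by the DREAM and MuvB complexes, near CCAAT boxes, which bind the factor NF-Y. Promoter windows of 300 bases, from 250 before to 50 after the start, were taken from RefSeq (GRCm38.p6) for 4 division genes described above. They are shown because these genes stood higher together. Capitals mark TTTGAA, the core of the homology region, and CCAAT, each on either strand (TTCAAA and ATTGG when read from the other strand), and all are written 5′ to 3′ along the gene.
Mki67, chr7:135716330-135716629, minus strand: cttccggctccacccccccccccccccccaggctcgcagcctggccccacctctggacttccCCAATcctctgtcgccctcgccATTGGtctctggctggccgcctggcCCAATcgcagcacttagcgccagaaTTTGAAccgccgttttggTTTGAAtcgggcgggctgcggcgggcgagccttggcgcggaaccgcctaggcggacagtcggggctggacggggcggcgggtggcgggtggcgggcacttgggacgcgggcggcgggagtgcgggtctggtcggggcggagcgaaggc
Ckap2, chr8:22185770-22186069, minus strand: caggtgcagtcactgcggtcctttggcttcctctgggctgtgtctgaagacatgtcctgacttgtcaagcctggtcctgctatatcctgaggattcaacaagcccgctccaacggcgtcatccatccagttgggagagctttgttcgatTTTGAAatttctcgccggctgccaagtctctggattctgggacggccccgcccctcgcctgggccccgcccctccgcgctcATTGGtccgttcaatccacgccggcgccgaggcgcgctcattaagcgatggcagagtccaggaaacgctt
Ccnb2, chr9:70421505-70421804, minus strand: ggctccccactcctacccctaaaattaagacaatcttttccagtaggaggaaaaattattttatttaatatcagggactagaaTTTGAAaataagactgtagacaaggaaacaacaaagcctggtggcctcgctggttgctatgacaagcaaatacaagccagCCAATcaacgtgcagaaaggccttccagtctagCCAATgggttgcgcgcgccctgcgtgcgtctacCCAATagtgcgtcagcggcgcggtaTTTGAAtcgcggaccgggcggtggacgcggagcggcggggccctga
Cdk1, chr10:69352863-69353162, minus strand: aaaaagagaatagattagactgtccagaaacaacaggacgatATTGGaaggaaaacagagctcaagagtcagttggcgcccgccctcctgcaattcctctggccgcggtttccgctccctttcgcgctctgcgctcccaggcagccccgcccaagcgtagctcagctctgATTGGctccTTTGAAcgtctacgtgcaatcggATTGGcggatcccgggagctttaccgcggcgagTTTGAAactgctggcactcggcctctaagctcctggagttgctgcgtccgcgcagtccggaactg

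Each of the 4 windows held both motifs, Mki67, Ccnb2 and Cdk1 with 2 matches to TTTGAA and 3 to CCAAT, and Ckap2 with 1 of each. The table matched 26 of the 32 spindle genes (30 windows) and 15 of the 20 mitotic regulators (15 windows). TTTGAA was present in 73.3% of the spindle windows and 53.3% of the regulator windows, against 17.9% of all 32851 windows of the same length. CCAAT was present in 73.3% and 80%, against 37.4% of all windows. The replication genes, 23 of 28 matched in 28 windows, differed: TTTGAA was present in 10.7%, and 1 of the E2F sequences TTTGGCGC, TTTGGCGG, TTTCCCGC and TTTCGCGC, on either strand, in 35.7%, against 2.4% of all windows. The E2F sequences were present in 6.7% of the spindle windows. These shares describe letters in a window and no binding was measured. Cthrc1 and Adam12 were not matched.

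Fibrillar collagens, the rope-forming collagens, were mixed, with 7 of 11 higher (median 0.27), and 1 at unadjusted p under 0.05, against 4.66% of all genes. With the GC offset 9 were higher, 5 at that p (median 0.66), and with the GC and length offset 9 and 6 (median 0.79). Of all 16011 genes, 1007 were higher at that p with the GC offset (median 0.12) and 879 with the GC and length offset (median 0.09). The list's median was -0.09 with replicate 1 of sham left out and -0.11 with replicate 2 of PNX left out. The 1 gene was Col24a1, a minor fibrillar collagen, at 0.843, 1.5 and 0.580 CPM in sham and 3.57, 9.14 and 14.6 CPM in PNX (3.24 ± 0.79). Col1a1 stood at 944.8, 4767 and 5695 CPM in sham and 2301, 2583 and 1875 CPM in PNX, so its groups overlapped and the sham libraries spanned a wider range than the PNX libraries. The log2 fold changes of Col1a2 (0.51) and Col3a1 (0.48) had the opposite sign to that of Col1a1 (-0.75), each with an unadjusted p over 0.05. Of the 21 network, beaded and other collagens, 6 were lower and 1 higher at that p (median -0.31), against 8.07% and 4.66% of all genes. The GC offset turned these counts to 3 lower and 4 higher (median 0.17, against 0.12 over all genes). The lower count was 2 when replicate 1 of PNX was left out, and 3 when replicate 3 of either group was. Col13a1, a transmembrane collagen of alveolar fibroblasts, stood at 27.3, 76.2 and 80.6 CPM in sham and 24.1, 28 and 21.3 CPM in PNX (-1.33 ± 0.37), and Col14a1, an adventitial collagen, at 300.1, 252 and 738 CPM and 175, 230.1 and 197 CPM (-1.10 ± 0.44).

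The enzymes that cross-link collagen and elastin did not move as one. Loxl2 stood at 67.9, 58.0 and 88.6 CPM in sham and 124, 174 and 119 CPM in PNX (0.96 ± 0.33), and Plod2, the lysyl hydroxylase of collagen telopeptides, at 64.1, 57.1 and 68.6 CPM and 96.7, 134 and 144 CPM (0.98 ± 0.30). Neither overlapped between groups. Loxl1, the cross-linker needed for elastic fibres, was lower, at 218, 1172 and 2168 CPM in sham and 243, 358 and 211 CPM in PNX (-2.13 ± 0.56), and sham replicate 1 lay within the PNX range. Pcolce2, an enhancer of procollagen processing, stood at 548, 450.2 and 549 CPM in sham and 238, 243 and 223 CPM in PNX (-1.14 ± 0.31).

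Of 17 elastic fibre genes tested, 7 were lower at unadjusted p under 0.05 and 1 higher (median -0.25), against 8.07% and 4.66% of all genes. Without sham day 7 replicate 3 the lower ones were 3. With the receptor covariate 4 were lower and the median was -0.01. Ltbp4, which organises elastin assembly, stood at 483, 1175 and 2237 CPM in sham and 248, 277 and 227 CPM in PNX (-2.37 ± 0.56). Fbln5, which tethers elastin to cells, stood at 463, 184 and 554 CPM in sham and 151, 120.2 and 166 CPM in PNX (-1.46 ± 0.44). Both lay lower in every PNX library than in any sham library. The higher gene was Fbn2, the fibrillin prominent in development, at 1.41, 2.15 and 2.75 CPM in sham and 4.42, 12.7 and 17.5 CPM in PNX (2.45 ± 0.97).

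Matricellular proteins, secreted proteins that modulate cells more than they bear load, held 2 of the 6 genes that rose, Cthrc1 and Spp1. Tnc, tenascin C, stood at 16.7, 42.5 and 27.7 CPM in sham and 134, 325 and 73.5 CPM in PNX (2.61 ± 0.52, adjusted p = 0.0672 by edgeR). Sparc, a collagen-binding glycoprotein, stood at 3242, 2726 and 2514 CPM in sham and 6637, 6723 and 5345 CPM in PNX (1.14 ± 0.37). Postn, periostin, stood at 249.8, 72.6 and 77.7 CPM in sham and 251, 334 and 291 CPM in PNX (1.13 ± 0.44), with sham replicate 1 almost level with the lowest PNX library. Smoc1, which binds basement membranes, was lower, at 25.2, 39.5 and 60.5 CPM and 18.4, 21.0 and 14.6 CPM (-1.22 ± 0.36). The median of the 19 members was -0.09, with 8 higher and 11 lower, and it turned to 0.05 with the GC offset and to 0.22 with the receptor covariate. Over all genes the median was 0.12 with that offset and -0.002 with that covariate.

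**Figure D4:**
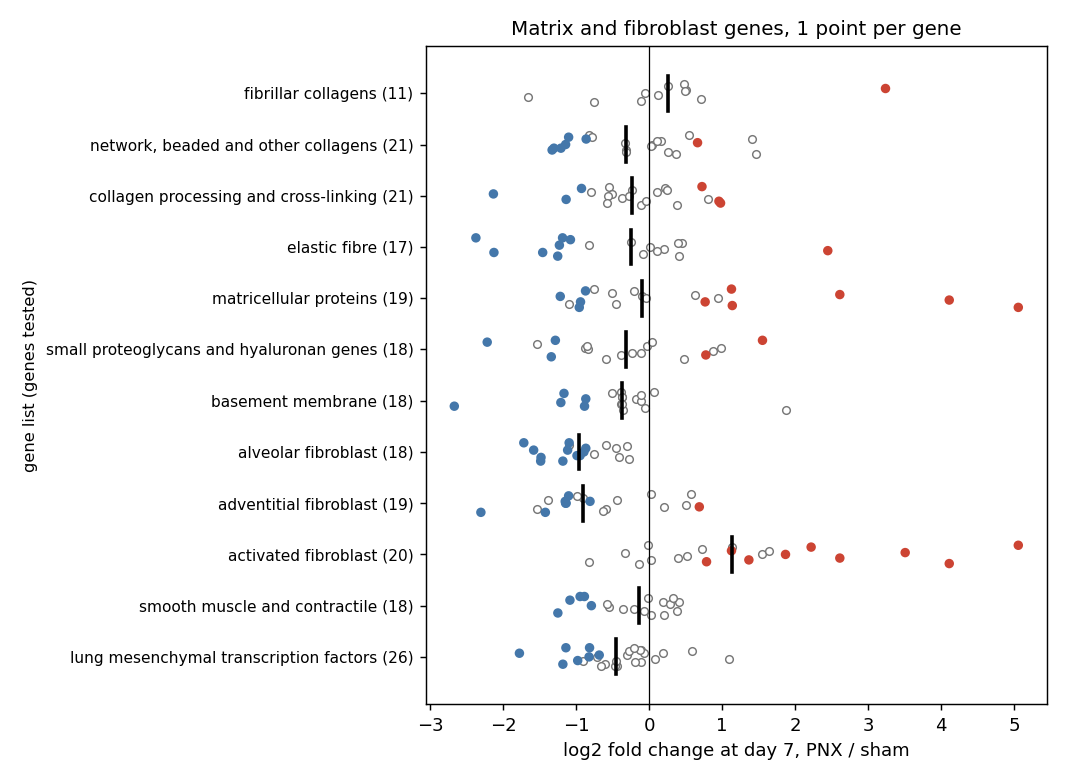
Log2 fold change of PNX over sham at day 7 for each member of 12 matrix and fibroblast lists, drawn as in the plot of cell cycle genes. The activated fibroblast list has its median at 1.13, the alveolar fibroblast list has every member below 0 and its median at -0.97, and the matricellular list spans both sides.

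Basement membrane genes were lower in 16 of 18 (median -0.37), with 5 at unadjusted p under 0.05, against 8.07% of all genes. Leaving out single libraries gave 1 to 5 of them, fewest without sham day 7 replicate 3. With the GC and length offset 11 were lower, 2 at that p (median -0.19), and with the receptor covariate 12 and 2. Besides Vwa1 they were led by the laminin chains Lamb2 at 121, 229 and 402 CPM in sham and 108, 128 and 100.3 CPM in PNX (-1.16 ± 0.41), and Lamc3 at 20.4, 67.7 and 70.3 CPM and 21.8, 19.9 and 26.6 CPM (-1.21 ± 0.46). The groups overlapped for both. Of the small proteoglycans, Prelp, which anchors basement membranes to the matrix below, stood at 971, 1110.4 and 2708 CPM in sham and 359, 263 and 409 CPM in PNX (-2.22 ± 0.48, adjusted p = 0.0767 by edgeR). The integrin gene Itga11, a collagen receptor of fibroblasts, stood at 13.1, 11.4 and 61.8 CPM in sham and 2.21, 4.98 and 7.32 CPM in PNX (-2.56 ± 0.72). Both were highest in sham replicate 3 and did not overlap between groups.

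Of 16 protease inhibitors tested, Timp1 was the only one that rose. Timp3, which binds to matrix, stood at 4071, 2774 and 8159 CPM in sham and 1616, 1672 and 1679 CPM in PNX (-1.59 ± 0.48), and Reck, a membrane-anchored inhibitor, at 69.3, 49.8 and 95.7 CPM and 26.5, 32.7 and 33.0 CPM (-1.22 ± 0.31). The log2 fold change of Timp2 was -0.08. Adam33, another metalloprotease gene, was opposite in sign to Adam12, at 34.4, 32.0 and 38.6 CPM in sham and 11, 18.6 and 13.9 CPM in PNX (-1.28 ± 0.36). Adamts4, an aggrecan-cleaving protease, stood at 14.3, 94.9 and 381 CPM in sham and 23.6, 20.8 and 16.8 CPM in PNX (-3.00 ± 0.95), a difference carried by sham replicates 2 and 3. Adamts9, of the same family, was higher, at 5.76, 12.7 and 2.75 CPM and 23.3, 20.2 and 20.8 CPM (1.62 ± 0.48).

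Genes of activated fibroblasts were higher in 16 of 20 (median 1.13), with Cthrc1, Spp1 and Adam12 past the threshold. At unadjusted p under 0.05, 9 were higher, against 4.66% of all genes. Leaving out single libraries gave 7 to 10, fewest without replicate 3 of sham at day 7. The median was 0.62 without replicate 2 of PNX at day 7. Nrep, a neuronal regeneration protein also made by myofibroblasts, stood at 259, 137 and 148 CPM in sham and 675, 872 and 439.9 CPM in PNX (1.87 ± 0.44, adjusted p = 0.0853 by edgeR). Runx1, a transcription factor, stood at 22.6, 27.3 and 14.4 CPM in sham and 55.6, 69.2 and 41.1 CPM in PNX (1.37 ± 0.37). Cdh2, N-cadherin, stood at 4.22, 3.01 and 2.61 CPM in sham and 5.78, 9.97 and 30.1 CPM in PNX (2.22 ± 0.69), highest in PNX replicate 3. Fap, the fibroblast activation protein, was at a log2 fold change of -0.32, and Cdh11 at -0.01.

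Alveolar fibroblast genes were lower in all 18 tested (median -0.97), and 14 did not overlap between groups, against 9.57% of all genes in that direction. At unadjusted p under 0.05, 11 were lower, against 8.07% of all genes, and 7 without PNX day 7 replicate 2. Slc7a10, an amino acid transporter, stood at 26.0, 47.5 and 34.9 CPM in sham and 14.1, 11.4 and 7.58 CPM in PNX (-1.72 ± 0.35, adjusted p = 0.0702 by edgeR). Mettl7a1, a methyltransferase-like gene, stood at 549.7, 405 and 507 CPM in sham and 164, 93.3 and 265 CPM in PNX (-1.48 ± 0.44), and Inmt, an indole methyltransferase, at 3464, 2319.7 and 2037 CPM and 1315, 1021 and 1878 CPM (-0.89 ± 0.41). None of the 3 was highest in sham replicate 3, and their groups did not overlap. At day 14, with other libraries, 15 of the 18 were lower as well (median -0.83). Over the list, the mean log2 CPM at day 14 was 7.70 and 8.90 in sham and 7.60, 7.83 and 7.36 in PNX. Sham replicate 1 of day 14 thus lay within the PNX range.

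Adventitial fibroblast genes were lower in 14 of 19 (median -0.90), with 7 lower at unadjusted p under 0.05, against 8.07% of all genes. That count was 3 when replicate 3 of sham or replicate 1 of PNX was left out, and 13 when replicate 2 of sham was. It was 3 with the receptor covariate as well. Pi16, a peptidase inhibitor that marks these cells, stood at 2691, 2603 and 8569 CPM in sham and 798, 887 and 1124 CPM in PNX (-2.30 ± 0.61). Entpd2, an ectonucleotidase, stood at 90.0, 105 and 145 CPM in sham and 38.4, 44.9 and 43.7 CPM in PNX (-1.42 ± 0.40). Ly6a, the stem cell antigen shared by these cells and endothelium, went the other way, at 285, 189 and 214 CPM and 384, 303 and 422 CPM (0.69 ± 0.31). For all 3 the groups did not overlap.

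Transcription factors of lung mesenchyme were lower in 22 of 26 (median -0.45), 7 of them at unadjusted p under 0.05, against 8.07% of all genes. The 7 became 4 with replicate 3 of sham left out and 3 with replicate 1 of PNX left out. Tbx5, which acts in early lung bud formation, was even in both groups, at 51.0, 47.9 and 50.9 CPM in sham and 28.6, 27.4 and 29.2 CPM in PNX (-0.81 ± 0.31). Tcf21, of alveolar fibroblasts, stood at 16.7, 33.7 and 24.6 CPM in sham and 10.5, 13 and 9.64 CPM in PNX (-1.18 ± 0.36), and Tbx4, of the same family as Tbx5, at 13.5, 18.5 and 15.1 CPM and 7.48, 9.69 and 6.81 CPM (-0.98 ± 0.43). Groups did not overlap for these 3. Of other mesenchymal cells, smooth muscle genes had a median of -0.13, pericyte genes -0.14 and mesothelial genes 0.10, and the first pair turned to 0.04 and 0.15 with the GC offset. All genes had a median of 0.12 with that offset. Higd1b, a pericyte marker, stood at 2.81, 1.29 and 1.45 CPM in sham and 5.95, 9.14 and 14.1 CPM in PNX (2.37 ± 0.53, adjusted p = 0.0799 by edgeR), while Pdgfrb, the pericyte receptor, stood at 43.2, 128 and 161 CPM and 54.2, 67.6 and 45.9 CPM (-0.99 ± 0.40). Of the mesothelial list, the keratin Krt18 stood at 67.2, 67.2 and 88.2 CPM in sham and 337, 134 and 224 CPM in PNX (1.64 ± 0.34) and its partner Krt8 at 47.8, 27.1 and 53.6 CPM and 167, 91.1 and 142 CPM (1.64 ± 0.36), while the mesothelial markers Msln and Wt1 were at 0.09 and 0.11 on the log2 fold change scale.

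In growth factor pathways more genes were lower than higher at unadjusted p under 0.05 in several lists. The same held over all genes tested (1292 lower, 746 higher), and 0 pathway genes passed after adjustment. Of 23 genes of the TGF-beta pathway 2 were higher and 6 lower, against 4.66% and 8.07% of all genes. Leaving out single libraries gave 0 to 4 higher, fewest without replicate 1 of PNX and most without replicate 2 of sham, and the lower ones were 3 without replicate 3 of sham or replicate 1 of PNX. Tgfb3, a ligand, stood at 131, 244 and 511 CPM in sham and 92.1, 128 and 85.4 CPM in PNX (-1.54 ± 0.42). Of 28 BMP genes 18 were lower (median -0.38), 6 at that p, with 1 higher. Among them Gdf10 (BMP3B) stood at 101, 100.3 and 199.8 CPM in sham and 45.0, 59.3 and 45.1 CPM in PNX (-1.43 ± 0.39). The pseudoreceptor Bambi stood at 51.2, 79.9 and 85.3 CPM in sham and 30.8, 46.5 and 25.4 CPM in PNX (-1.08 ± 0.32). None of the 3 overlapped between groups.

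Among 15 Wnt ligands and R-spondins, Wnt9a stood at 9.42, 41.5 and 99.6 CPM in sham and 7.31, 12.5 and 8.48 CPM in PNX (-2.42 ± 0.60), with sham replicate 1 inside the PNX range. Wnt2b stood at 7.73, 6.01 and 24.9 CPM in sham and 1.53, 2.77 and 3.08 CPM in PNX (-2.39 ± 0.61). Wnt4 was opposite, at 6.33, 9.24 and 4.64 CPM and 10.2, 23.3 and 27.8 CPM (1.61 ± 0.54). Of 22 Wnt targets and inhibitors 17 were lower (median -0.59), 3 at unadjusted p under 0.05, near the 8.07% of all genes. Leaving out single libraries gave 1 to 7. In the hedgehog pathway 12 of 16 were lower (median -0.60), 6 of them at unadjusted p under 0.05, against 8.07% of all genes. The 6 became 3 without sham day 7 replicate 3. Ptch1, receptor and target of the pathway, stood at 9.0, 18.9 and 24.8 CPM in sham and 3.57, 4.43 and 4.24 CPM in PNX (-2.10 ± 0.49). Of 12 EGF-family genes, the ligand Ereg stood at 3.23, 3.22 and 5.22 CPM in sham and 12.9, 19.1 and 6.68 CPM in PNX (1.70 ± 0.45) and the receptor Erbb2 at 9.14, 29.4 and 40 CPM and 8.67, 8.58 and 7.58 CPM (-1.66 ± 0.46). Of the IGF genes, the binding protein Igfbp3 stood at 106, 137 and 169 CPM in sham and 42.5, 40.7 and 82.0 CPM in PNX (-1.32 ± 0.35). The retinoic acid receptor Rarg stood at 9.42, 53.7 and 87.0 CPM in sham and 5.61, 7.48 and 5.52 CPM in PNX (-3.02 ± 0.58, adjusted p = 0.0606 by edgeR). For Ptch1, Ereg, Erbb2, Igfbp3 and Rarg the groups did not overlap, and in Erbb2 and Rarg sham replicate 1 lay nearest to PNX.

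Chemokine genes were higher in 16 of 24 (median 0.80), 10 of them at unadjusted p under 0.05, against 4.66% of all genes. Leaving out replicate 1 of PNX lowered that count to 3 and replicate 1 of sham to 4, and the median with the GC and length offset was 0.28. Cxcl5, which attracts neutrophils, stood at 6.75, 4.94 and 2.75 CPM in sham and 21.1, 10.8 and 88.0 CPM in PNX (3.06 ± 0.65, adjusted p = 0.0783 by edgeR). Ccl2 and Ccl7, which attract monocytes, overlapped between groups: Ccl2 stood at 144, 101 and 343 CPM in sham and 466, 219.8 and 496 CPM in PNX (1.01 ± 0.46). Cxcl14, also an alveolar fibroblast gene, was lower, at 441, 681 and 603 CPM and 293, 284 and 221 CPM (-1.11 ± 0.33). Markers of neutrophils summed to 10.4, 16.5 and 8.84 CPM in sham and 33.9, 20.1 and 25.9 CPM in PNX. Those of platelets summed to 16.1, 43.0 and 11.6 CPM and 87.3, 103.6 and 29.1 CPM, with 8 of 8 higher, led by the platelet chemokine Ppbp (1.95 ± 0.55). The part of these cells in the chemokine levels was not tested.

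Of 29 interleukin, acute phase and NF-kB genes 16 were higher (median 0.11). At unadjusted p under 0.05, 2 were higher and 5 lower, against 4.66% and 8.07% of all genes. The lower ones were 8 without replicate 1 of sham and 3 without replicate 3 of sham. Il6ra, the receptor's alpha chain, stood at 70.0, 78.2 and 101 CPM in sham and 19.2, 19.9 and 30.8 CPM in PNX (-1.83 ± 0.41, adjusted p = 0.0783 by edgeR). Csf1, the macrophage growth factor, stood at 145, 199.5 and 426 CPM in sham and 71.6, 65.6 and 79.8 CPM in PNX (-1.83 ± 0.42). Socs3, a feedback inhibitor, stood at 213, 576 and 1670.2 CPM in sham and 133, 119 and 210.1 CPM in PNX (-2.41 ± 0.59). All 3 were lower in each PNX library than in any sham library. Interferon-induced genes were higher in 25 of 30 (median 0.75), 10 at unadjusted p under 0.05, against 4.66% of all genes. The 10 became 6 when replicate 2 or 3 of sham or replicate 3 of PNX was left out. Without that PNX library 18 were higher (median 0.32). Isg15, a ubiquitin-like modifier, stood at 22.1, 27.5 and 16.4 CPM in sham and 47.4, 62.9 and 82.9 CPM in PNX (1.55 ± 0.35), and Ifi27l2a at 97.1, 46.2 and 42.5 CPM and 147, 183 and 171 CPM (1.43 ± 0.38). Neither overlapped between groups.

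Immediate early genes, which respond within minutes to stimuli and to handling of cells, were lower in 18 of 25 (median -0.77). Of these 12 stood at unadjusted p under 0.05, against 8.07% of all genes. That count was 8 without replicate 3 of sham, 14 without replicate 2 of sham, and 8 with the receptor covariate. Nr4a1, a nuclear receptor of this class, stood at 2255, 3593 and 8393 CPM in sham and 669, 846 and 634 CPM in PNX (-2.73 ± 0.51, adjusted p = 0.0606 by edgeR). Egr1 stood at 2179.5, 3482 and 5383 CPM in sham and 868, 876 and 983 CPM in PNX (-2.02 ± 0.40), and Zfp36, which destabilises cytokine transcripts, at 1726, 1731 and 5371 CPM and 545, 516 and 808 CPM (-2.24 ± 0.47). In each the PNX libraries lay close together and the sham libraries spread upwards to replicate 3. Ier3, of the same class, was opposite, at 68.7, 128 and 82.2 CPM in sham and 152, 228 and 172 CPM in PNX (0.99 ± 0.39). The part of cell handling in these levels was not tested. Circadian clock genes were lower in 18 of 19 (median -0.45), with 4 at unadjusted p under 0.05, against 8.07% of all genes. They were led by the repressor Cry2 at 24.2, 77.3 and 97.9 CPM in sham and 20.9, 22.2 and 13.2 CPM in PNX (-1.83 ± 0.43).

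Ribosomal protein genes, which encode the protein part of the ribosome, were higher in all 32 tested (median 0.83). Of these 30 did not overlap between groups, against 9.95% of all genes in that direction, although 0 passed after adjustment. At unadjusted p under 0.05, 23 were higher, against 4.66% of all genes. That count depended on single libraries: leaving out replicate 2 of sham gave 10, replicate 3 of sham gave 3, and PNX replicates 1, 2 and 3 gave 12, 6 and 12. Rpl27 stood at 78.3, 44.0 and 40.6 CPM in sham and 114, 151 and 101 CPM in PNX (1.16 ± 0.37), and Rplp1, of the ribosomal stalk, at 141, 118 and 65.8 CPM and 226, 406 and 214 CPM (1.38 ± 0.48). Rps20 stood at 76.2, 51.1 and 37.8 CPM in sham and 109, 177 and 116 CPM in PNX (1.28 ± 0.43). Over the list, the mean log2 CPM was 7.50, 7.02 and 6.78 in sham and 7.90, 8.27 and 8.0 in PNX.

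Nuclear genes of oxidative phosphorylation were higher in 26 of 28 (median 0.78), with 21 not overlapping, against 9.95% of all genes, and 0 past the threshold. At unadjusted p under 0.05, 17 were higher, against 4.66% of all genes. The count was 10 and 7 without sham day 7 replicates 2 and 3, and 10, 9 and 11 without PNX day 7 replicates 1, 2 and 3. Ndufs5, of complex I, stood at 29.5, 28.4 and 27.7 CPM in sham and 65.8, 63.1 and 60.1 CPM in PNX (1.14 ± 0.29, adjusted p = 0.103 by edgeR). Uqcrq, of complex III, stood at 78.3, 67.2 and 51.6 CPM in sham and 168, 199.9 and 128 CPM in PNX (1.33 ± 0.40), and Cox7c, of complex IV, at 83.6, 68.7 and 37.8 CPM and 168, 199 and 153 CPM (1.45 ± 0.44). Among the 11 members with an unadjusted p over 0.05, Atp5a1, of the ATP synthase, was at a log2 fold change of 0.17, and Sdha, the flavoprotein of complex II, at -0.40.

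Both lists have short transcripts, with a median length of 1124 bases for ribosomal protein genes and 896 bases for oxidative phosphorylation genes, against 3354 bases for all genes with a length. With an offset for GC content and length their medians were 0.62 and 0.23, against 0.09 over all genes. At unadjusted p under 0.05, 10 and 6 genes were then higher, against 879 of all 16011. At day 14 the ribosomal protein genes were lower after PNX in all 32 (median -0.74). Of them 28 differed between days at unadjusted p under 0.05 (0 after adjustment), against 8.76% of all genes. The sham library of day 14 with the highest mean, replicate 1 at 9.08 log2 CPM, was also the library with the fewest counts, 2539628. Of the ribosome biogenesis genes, which build ribosomes in the nucleolus, 8 of 20 were higher (median -0.09). Ribosomal protein genes have many near-identical pseudogene copies, and how the authors assigned shared reads is not given in the sources used here.

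**Figure D5:**
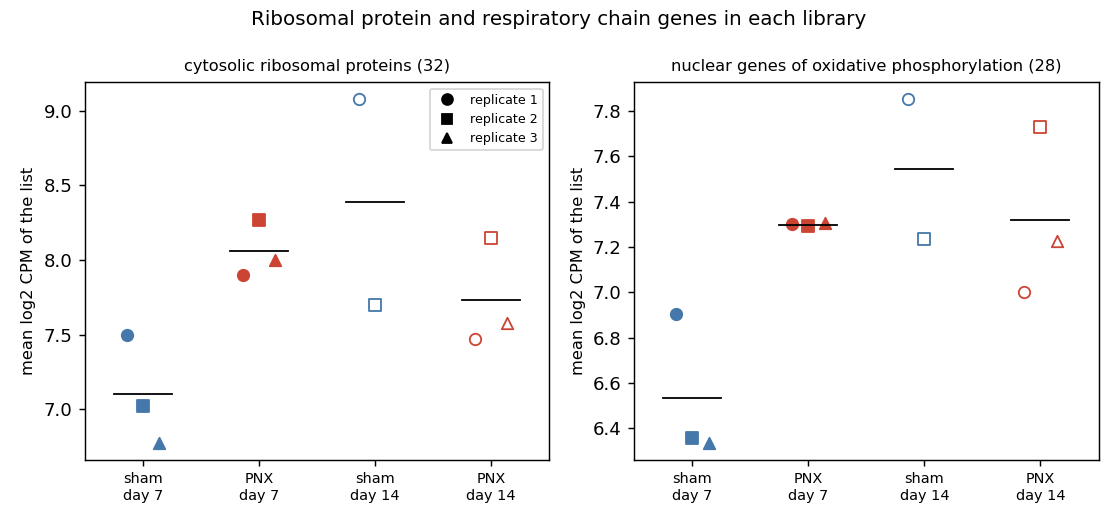
Mean log2 CPM of 32 ribosomal protein genes and 28 nuclear genes of oxidative phosphorylation in each library, with bars at group means, filled symbols for day 7, open symbols for day 14, blue for sham and red for PNX. At day 7 every PNX library lies above every sham library in both panels, while at day 14 sham replicate 1 lies highest.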

How the data were processed

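RNA was measured by sequencing of sorted lung mesenchymal cells, with libraries from a low-input kit per the labels' protocols. The authors deposited read counts per gene symbol, whole numbers for 24411 symbols in 11 libraries, built on mm10 with bcl2fastq 2.20.0.422 per the submitters' processing notes. The aligner, counting tool, strand setting and filters are not given in the sources used here, so overlapping genes may share reads. Groups come from the labels.

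From these counts, filterByExpr of edgeR 4.0.16 (R 4.3.3) removed 8400 genes and left 16011. With TMM factors, all 11 libraries entered 1 quasi-likelihood model (robust, 4 group means), which gave the tests of surgery at each day, and of the difference between days, adjusted by Benjamini-Hochberg at 0.05. The SE is the absolute log2 fold change divided by the square root of F. The steps were tested on simulated data for the day 7 comparison on 16011 genes: 10 of 100 changes of 2-fold and 74 of 100 of 4-fold were called, with 4 false among 88 calls. Changes were planted only in genes of higher counts, so recovery among genes of few counts was not tested. The simulated spread followed the trend over expression, without spread particular to a gene. Depth varied 2.82-fold between the day 7 libraries, which limits genes of few counts most.

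The rule for naming genes took those past the threshold and the 10 of smallest p in each direction. These needed a mean log2 CPM of 1 or more, with predicted or clone-named genes left out. At any level it also took up to 4 of smallest p in each of 65 lists, all members of lists of up to 8, and 20 fixed genes. Not all of the 268 genes it took are described, and the choice among them followed no stated rule. Genes named outside that rule, such as Angptl7, C1qa, Fap and Mcm4, were chosen after their values were seen. The comparison, lists and tests were chosen with earlier results of these data known. Transcript GC content and length came from GENCODE M21, with 98.5% of symbols matched, and promoters from RefSeq (GRCm38.p6).

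Alternatives were DESeq2 1.42.0, limma voom (limma 3.58.1) with sample weights, a test against a fold of 1.5, RLE factors, total counts, no filter, a filter of 1 CPM in 3 libraries, the day 7 libraries only, a replicate block, a covariate for background on 1462 olfactory and vomeronasal receptor genes, a GC offset (lowess span 0.5, genes above a log2 CPM of 3) alone and with the block, both day 7 libraries of number 2 left out, and each library left out. The GC and length offset was chosen after seeing the data. Figures were drawn with matplotlib.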

Additional observations from a re-analysis of the deposited data

How the results depend on the processing

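The 6 genes that rose kept a positive log2 fold change under each of the 25 other settings. The count of higher genes was 132 with DESeq2, 249 with voom, 12 with library totals, 44 without a filter, 4 with a fold of 1.5, with only the day 7 libraries or with the GC offset and block, and 9 without both libraries of number 2. It was 2 with the receptor background covariate, the GC offset or the GC and length offset, the last chosen after seeing the data. The count of lower genes was 325 with DESeq2, 577 with voom, 134 without a filter, and 1 with RLE factors or only the day 7 libraries. Genes that differed between days numbered 102 with DESeq2, 8 without a filter, 1 with library totals, 4 without both libraries of number 2, and 1 with the GC offset and block. Leaving out 1 library gave 3 to 39 higher genes, 0 to 386 lower genes and 0 to 370 that differed between days. The 39 and 386 came without replicate 1 of sham at day 7, and the 370 without replicate 2 of sham at day 14. Dropping either sham library of day 14 gave 27 and 26 higher and 56 and 68 lower genes, with the lone library assumed to vary like the others. The higher genes were 10 and 14 without replicate 3 of sham or replicate 2 of PNX at day 7, and 3 without replicate 2 of sham at day 7 or of PNX at day 14. An adjusted p that DESeq2 gave as NA was not counted.

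Of the named genes, 11 changed sign under some setting, and none of the 11 had an adjusted p under 0.05 in any. The log2 fold change of C1qa was 0.52 with voom, 0.86 without both libraries of number 2, 0.28 with the GC offset and block, and -1.01 to 0.76 when single libraries were left out. Cdh11 was at 0.18 with library totals, 0.0388 with only the day 7 libraries, 0.38 with the receptor covariate, 0.0843 with the GC and length offset, and -0.25 to 0.17 without single libraries. Timp2 was at 0.10 with library totals, 0.11 with the GC offset, 0.13 with that and the block, 0.21 with the GC and length offset, and -0.21 to 0.0262 without single libraries. With the receptor covariate Epcam was at -0.32, Fap at 0.27, Mcm4 at 0.33 and Sdha at 0.0833, and Mcm4 at 0.0327 with library totals. Wt1 was at -0.19 with voom, and Wt1 and Msln at -0.10 and -0.00866 without both libraries of number 2. Leaving out single libraries gave -0.95 to 1.07 for Adgre1, -0.0240 to 0.31 for Atp5a1, -0.38 to 0.74 for Epcam, -1.48 to 0.17 for Fap, -0.64 to 0.0625 for Mcm4, -0.27 to 0.34 for Msln and -0.44 to 0.86 for Wt1. The cause of these changes was not tested.

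Libraries of the same number correlated at -0.12, 0.53 and 0.34 in their deviations from the group means. With 3 libraries in each group these values cannot decide whether the numbers pair the samples. Sham replicate 1 correlated best with PNX replicate 3, the others with their own number. With the replicate block 4 genes were higher, 3 of them among the 6, 0 were lower and 2 differed between days. The block left Adam12 and Ckap2 at an adjusted p of 0.119 and Mki67 at 0.175 by edgeR. Library totals without TMM factors shifted the median over all genes by 0.18 on the log2 scale.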

Other observations

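Stress and nutrient genes outside the comparisons above were mixed at day 7, and none passed the edgeR threshold. Metallothioneins, small metal-binding proteins, were higher: Mt2 stood at 59.5, 24.3 and 35.8 CPM in sham and 73.8, 68.4 and 199.8 CPM in PNX (1.52 ± 0.46), and Mt1 at 332, 151 and 161 CPM and 308, 283 and 741 CPM (1.05 ± 0.44). PNX replicate 3 was highest for both, and Mt1 overlapped between groups. The chaperone gene Hspe1 stood at 38.9, 38.7 and 25.8 CPM in sham and 63.1, 97.7 and 64.1 CPM in PNX (1.12 ± 0.36), while Hsf1, the heat shock transcription factor, stood at 51.7, 45.1 and 84.5 CPM and 23.3, 17.7 and 29.8 CPM (-1.35 ± 0.39). Slc1a5, a glutamine transporter, was lower, at 284, 436 and 882 CPM in sham and 84.6, 104 and 129 CPM in PNX (-2.33 ± 0.45, adjusted p = 0.0606 by edgeR). Of 25 hypoxia and glycolysis genes 13 were higher (median 0.07). Pfkfb3, which drives glycolytic flux, stood at 74.4, 128 and 128 CPM in sham and 41.6, 29.9 and 41.1 CPM in PNX (-1.55 ± 0.36), and Gapdh at 62.8, 69.4 and 83.7 CPM and 118, 118 and 119 CPM (0.72 ± 0.30).

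Genes of mechanical and contact signalling were mixed. Of 17 targets of YAP 7 were higher and 10 lower (median -0.10). At unadjusted p under 0.05, 3 were lower, against 8.07% of all genes, and 1 without replicate 3 of sham at day 7. Axl, a receptor tyrosine kinase, stood at 210.3, 298 and 907 CPM in sham and 134, 149 and 179 CPM in PNX (-1.62 ± 0.46), and F3, tissue factor, at 225, 116 and 256 CPM and 79.4, 60.1 and 112 CPM (-1.25 ± 0.37). Zyx, a focal adhesion protein, stood at 271, 304 and 622 CPM in sham and 133, 108 and 140.2 CPM in PNX (-1.65 ± 0.41). Of 17 Notch genes 9 were higher (median 0.04), with 4 lower at that p, and the target Heyl stood at 77.9, 111 and 151 CPM in sham and 46.2, 52.1 and 40.3 CPM in PNX (-1.30 ± 0.39). The groups did not overlap for any of these 4 genes. Of 19 complement genes 6 were higher and 13 lower (median -0.27). At unadjusted p under 0.05, 2 were higher and 1 lower, against 4.66% and 8.07% of all genes. Cfi, complement factor I, was higher, as Cfd was, at 0.843, 2.58 and 0.870 CPM in sham and 9.69, 3.60 and 10.8 CPM in PNX (2.53 ± 0.64), while C4b, another complement gene, stood at 484, 1773 and 1327 CPM and 615, 557 and 537 CPM (-1.07 ± 0.44).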
